A study of Mus musculus with 4 samples.

Results

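The genes described here are those whose Ezh2-null difference could be compared between 2 sources of one progenitor. For each gene, the log2 difference between the Ezh2-null and the wild-type array was taken in fetal liver and in bone marrow, and the bone marrow value was subtracted from the fetal liver value. The result is called the difference of differences. It is positive where the null-minus-wild-type difference was higher in fetal liver, and negative where it was higher in bone marrow. A gene entered when 1 of its probes was flagged well above background on all 4 arrays, which held for 11212 of 31694 genes and other names on the array; 17725 were flagged on at least 1 array. The rule reads the detection flags and not the size of the contrast.

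The 4 samples were erythrocyte/megakaryocyte progenitors (MEPs) of mice on a C57BL/6 background. They were wild-type and Ezh2-/- cells of fetal liver at E14.5, counted in embryonic days, and wild-type and Ezh2-/- cells of adult bone marrow. Each was hybridised to 1 one-colour Agilent array, so no value below has a replicate and no test was possible; a gene is called when its difference of differences is at least 4-fold, which is 2 on the log2 scale. The labels do not say how the cells were isolated, which part of Ezh2 was deleted or by what means, or the number and sex of the animals, and source, age and array cannot be told apart within a genotype.

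MEPs are the last shared precursors of red cells and of platelet-forming megakaryocytes. Fetal liver MEPs feed rapid red cell production before birth, while those of adult marrow supply the steady turnover after it. Ezh2 is the main methyltransferase of Polycomb repressive complex 2 (PRC2), which places methyl groups on lysine 27 of histone H3, a mark of silenced genes; its homologue Ezh1 can take its place in many adult cells. The RNA of a gene in such a bulk sample depends both on the amount per cell and on the share of cells that hold it, and these cannot be told apart here.

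The targeted gene itself went against the labels. The 1 measured Ezh2 probe (chromosome 6, 47480307 to 47480366, mm9) had scaled signals of 33.5 on wild-type and 194 on null fetal liver, and of 35.4 on wild-type and 70.0 on null bone marrow. It was higher on the array labelled null in both sources, with a difference of differences of 1.55, short of the call. With the deleted part unknown, the probe may lie outside it and then checks nothing. The genotypes are therefore those of the labels throughout, and "null" below means the array labelled Ezh2-null. Red cell identity was present, with the erythroid factor Gata1 between 6624 and 10281 on the 4 arrays, while no array had the hepatocyte genes Alb, Afp or Ttr well above background. Of 24 hepatocyte genes on the array, 11 passed on wild-type fetal liver, 10 on null fetal liver, 5 on wild-type and 8 on null bone marrow, with summed signals of 2557, 1738, 1663 and 1099.9. Apoa2, an apolipoprotein, was a member and was called lower (419, 79.5, 35.3 and 37.1; -2.47), and Apoa1 passed on 3 arrays with 65.2 on wild-type fetal liver. The part of hepatocyte RNA in the results was not tested. Of the 39418 probes, 39% to 46.4% were well above background per array. The 2 bone marrow arrays correlated at 0.982 over the log2 values of 12880 detected probes and every other pair at 0.915 to 0.937, a description over probes that share 1 hybridisation.

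Over the 11212 genes the median difference of differences was -0.26 and the quartiles were -0.79 and 0.48. It depended on the scaling: with the 75th percentile taken over all probes it was -0.54, with scaling on the 3 detected spike-in probes 0.19, and with cyclic loess -0.04. Medians of gene lists are therefore also given relative to the all-gene median. The call was met by 1052 genes (9.38% of those measured), 713 higher (6.36%) and 339 lower (3.02%), a share of higher calls of 67.8%. That share was 50.3% with the 75th percentile over all probes, 87.8% with spike-in scaling and 59.6% with quantile normalization, so the balance of higher and lower calls depends on the scaling. Single values reached from -5.5 to 6.07. For the 152 probes whose repeated spots gave a spread on all arrays, the median spot error carried into a difference of differences was 0.25 on the log2 scale; it covers error within arrays alone.

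Most calls came from fetal liver. The SD over genes of the null-minus-wild-type difference was 0.961 in fetal liver and 0.534 in bone marrow, and the fetal liver difference was the larger in size for 606 of the 713 higher and 268 of the 339 lower genes. Of the higher genes, 440 differed at least 2-fold by genotype in fetal liver alone, 55 in bone marrow alone and 218 in both sources in opposite ways. Of the lower genes, these counts were 224, 50 and 65. The wild-type fetal liver array stood out: it was the highest of the 4 for 51.4% of all measured genes and for 70.2% of those called lower. The null fetal liver array was the highest for 82.6% of the genes called higher (23.3% of all genes), and the null bone marrow array the lowest for 53.7% (33.1% of all genes). A call needs such an order of the arrays, so these shares describe the called genes and support nothing.

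**Figure D1:**
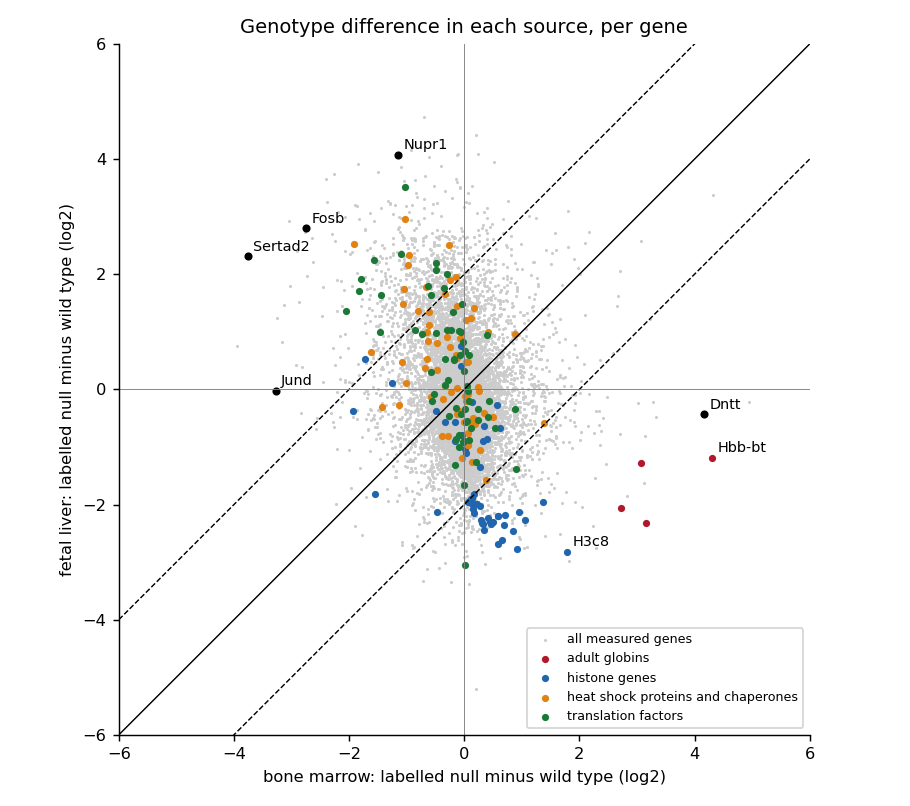
Genotype difference of each measured gene (null minus wild type, log2) in bone marrow (horizontal) and fetal liver (vertical), 1 array per group. The solid line marks equal differences and the dashed lines the 4-fold call, so distance above or below the solid line is the difference of differences; the 4 adult globins (red) lie at the lower right and 29 of 51 histone genes (blue) below the lower dashed line. Chaperones are orange, translation factors green, and 5 other genes are marked in black.

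Red cell genes had differences of differences in both directions, depending on the sub-group. The adult globins, the protein chains of haemoglobin, were the most negative list: all 4 measured members were called lower and the median was -5.13. Hba-a1, an alpha chain gene, had signals of 32860 on wild-type and 6575 on null fetal liver, and of 433 on wild-type and 3855 on null bone marrow. Hbb-bt, a beta chain gene, had 39877 and 17503 in fetal liver and 196 and 3885 in bone marrow. In both genes the fetal liver signal was lower and the bone marrow signal higher on the null array, and the differences of differences were -5.47 and -5.5. Hba-a2 had -4.78 and Hbb-b2 -4.36. Read by genotype, the median log2 gap between fetal liver and bone marrow over these 4 genes was 6.27 in wild type and 1.48 in null. Near-identical alpha genes, and likewise beta genes, may share signal on these probes, so the 4 values are not 4 independent readings. Of the embryonic globin list, Hbb-bh2 alone was measured and had -0.61.

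The bases upstream of an alpha and a beta globin gene show the setting of these 2 loci. They were taken from RefSeq promoters on GRCm38.p6, for Hba-a1 chr11:32283422-32283671 on the plus strand and for Hbb-bt chr7:103813924-103814173 on the minus strand. Capitals mark the CCAAT box (CCAAT) and, in Hbb-bt, the TATA box (TATAAA), searched on both strands. The 250 bases end at the base before the transcription start.
Hba-a1: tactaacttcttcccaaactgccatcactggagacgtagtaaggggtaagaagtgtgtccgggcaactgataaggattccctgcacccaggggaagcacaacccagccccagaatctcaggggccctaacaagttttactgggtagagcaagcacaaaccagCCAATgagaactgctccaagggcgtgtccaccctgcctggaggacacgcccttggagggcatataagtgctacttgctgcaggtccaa
Hbb-bt: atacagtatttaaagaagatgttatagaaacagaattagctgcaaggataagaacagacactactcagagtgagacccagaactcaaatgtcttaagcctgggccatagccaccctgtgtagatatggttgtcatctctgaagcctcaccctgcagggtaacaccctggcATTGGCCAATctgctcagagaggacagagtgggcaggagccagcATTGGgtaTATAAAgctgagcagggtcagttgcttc
Hba-a1 held 1 CCAAT match, and Hbb-bt held 3 CCAAT matches and 1 TATAAA match. Of all 32851 promoters in the table, 33.8% held CCAAT and 12.4% TATAAA in a window of this length. Neither window held AGATAA or CCACACCC, the only spellings searched for the GATA motif and the CACCC box of erythroid factors. Other spellings were not searched, such as tgataa in the Hba-a1 window and caccc in both. The TATA box was likewise searched as TATAAA alone, and the Hba-a1 window holds catataag near its end. The search therefore does not say that such motifs are absent.

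Genes of haem synthesis, the pathway that makes the iron-holding group of haemoglobin, and its globin chaperone followed the globins in direction. Of 17 measured, 7 were called lower (41.2%, against 3.02% of all genes) and none higher, and the median was -1.56. Ahsp, the chaperone that holds free alpha globin, had 8806 and 1760 in wild-type and null fetal liver and 3324 and 5935 in bone marrow, a difference of differences of -3.16. Alas2, the erythroid enzyme of the first step, had 169, 57.0, 32.2 and 78.1 in that order (-2.85). Both genes were higher in fetal liver in wild type and higher in bone marrow in null. Uros, an enzyme of a middle step, had -2.48. Alas1, the enzyme of the first step in other cells, and Cpox, a later enzyme, lay on the other side with 1.86 and 1.76, short of the call. The list's median relative to all genes was -1.30, and it ranged from -1.51 to -0.48 over the alternatives, the weakest with genes detected on at least 1 array.

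Red cell membrane and skeleton genes split. Of 28 measured, 5 were called lower and 3 higher. Lower were the enzyme Mgst3 (2432 and 404 in wild-type and null fetal liver, 243 and 474 in bone marrow; -3.56), the anion exchanger Slc4a1 (-2.40), the adhesion molecule Icam4 (-2.32), the blood group carrier Rhd (-2.10) and the peroxide-removing enzyme Prdx2 (-2.02). Mgst3 had a further probe with -3.55. Higher was the skeleton protein Epb41, with 621 and 3551 in fetal liver and 360 and 259 in bone marrow, a difference of differences of 2.99. Ermap had 2.27, and 1.77 and 0.72 by further probes. Stom had 2.10 by its brightest probe and -0.63 by another, so its direction depends on the probe.

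Regulators of globin switching were divided. Of 12 measured, 6 were above 0 and 6 below, 4 were called higher and 1 lower, and the median was 0.33. The called shares were 33.3% and 8.33%, against 6.36% and 3.02% of all genes. Kdm1a, a demethylase of histone H3 lysine 4, had 53.9 and 622 in wild-type and null fetal liver and 230 and 160 in bone marrow, a difference of differences of 4.05. Myb, a progenitor transcription factor, had 207, 840, 409 and 113 in that order (3.88). For both genes the null fetal liver signal was the highest of the 4. Chd4, the remodelling enzyme of the NuRD complex, had 2.69, and the methyl-DNA binding protein Mbd2 had 2.47 by its brightest probe and 0.31 by another. The called lower member was Klf1, the erythroid activator of the adult beta globin gene, with 2643 and 1724 in fetal liver and 1058 and 3356 in bone marrow (-2.28). Bcl11a, a silencer of fetal and embryonic globins, had 1.34 and was not called.

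Histone genes held the most lower calls of any list. Of 51 measured, 29 were called lower and 1 higher (background 3.02% lower). The median was -2.11, or -1.85 relative to all genes, and it ran from -2.27 to -1.21 over the alternatives, the weakest with quantile normalization. H3c8, which encodes histone H3, had 1159 on wild-type and 164 on null fetal liver, and 82.3 on wild-type and 285 on null bone marrow, a difference of differences of -4.62. H4c3, which encodes histone H4, had 4385, 905, 508 and 1059 in that order (-3.34). In both, wild-type fetal liver was the highest array while the other 3 lay closer together. This held across the list: wild-type fetal liver was the highest array for 43 of the 51 genes. H2aw was the member called higher, with 2.24.

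Most of the lower calls lay among the clustered, replication-dependent histone genes. Their mRNAs are made in S phase and end in a stem-loop in place of a poly(A) tail. Such genes were picked by the form of their symbol alone, in the families H1f, H2ac, H2bc, H3c and H4c. Of 33 genes measured with these symbols, 25 were called lower and none higher, with a median of -2.57. All 5 classes took part: 3 of 4 linker histone H1 genes, 8 of 10 H2A, 3 of 5 H2B, 5 of 6 H3 and 6 of 8 H4 genes were called lower. Of 18 histone genes with other symbols, 4 were called lower and 1 higher. Whether some of these are replication-dependent too was not checked. They include H2aw, the gene called higher (2.24), and H4f16, called lower (-2.89). This split of the list was made after its values were seen. Histone genes are near-identical in sequence and may share signal on the array.

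The histone calls went with where the probe lay. Of the 27 clustered genes whose probe starts within the first 450 bases of its transcript, 24 were called lower (88.9%), against 1.88% of the 2340 genes outside the histone list with such probes. Of the 6 with probes starting further along, 1 was: H1f4 had -3.08, while H2ac18 had 1.54, H1f2 1.36, H4c9 0.46, H2bc8 -0.27 and H2bc6 -1.14. The 450-base limit was set after the values were seen. The part of probe position in the result was not tested beyond removing a smooth trend, as given below.

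**Figure D2:**
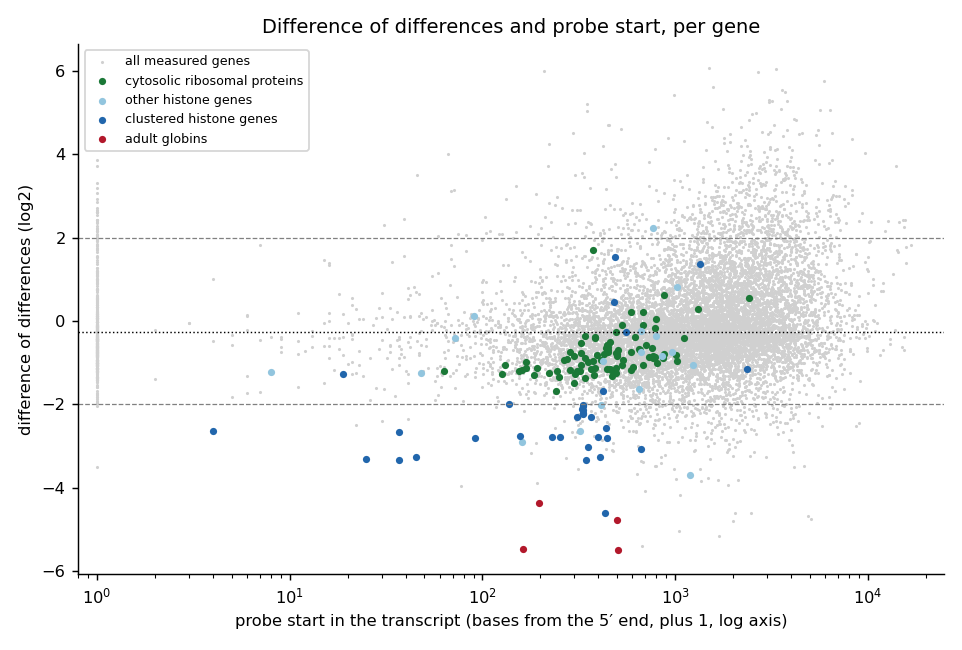
Difference of differences of each measured gene (vertical, log2) against the start of its probe in the transcript (horizontal, bases from the 5′ end plus 1, log axis). Dashed lines mark the 4-fold call and the dotted line the all-gene median of -0.26; 24 of the 27 clustered histone genes with probes in the first 450 bases lie below the lower dashed line, as do the 4 adult globins, while 76 of 86 cytosolic ribosomal protein genes lie below the median.

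2 promoters of called histone genes are shown because these members were called together and their windows share a short motif. They are the 250 upstream bases from RefSeq on GRCm38.p6, for H2bc3 chr13:23746484-23746733 and for H3c8 chr13:23535168-23535417, both on the plus strand. Capitals mark CCAAT on either strand and, in H2bc3, the octamer (ATTTGCAT) and the TATA box (TATAAA).
H2bc3: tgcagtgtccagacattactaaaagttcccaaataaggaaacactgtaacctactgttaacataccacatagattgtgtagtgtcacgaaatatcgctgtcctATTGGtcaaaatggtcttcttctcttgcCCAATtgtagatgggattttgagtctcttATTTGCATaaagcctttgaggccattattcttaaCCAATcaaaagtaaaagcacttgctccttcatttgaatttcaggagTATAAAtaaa
H3c8: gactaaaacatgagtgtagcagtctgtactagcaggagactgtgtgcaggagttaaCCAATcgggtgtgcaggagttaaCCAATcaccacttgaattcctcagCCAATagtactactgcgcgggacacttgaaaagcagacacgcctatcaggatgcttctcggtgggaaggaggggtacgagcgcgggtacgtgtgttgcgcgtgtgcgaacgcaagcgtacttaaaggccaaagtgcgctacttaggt
H2bc3, an H2B gene, had a difference of differences of -2.67, with 735 on wild-type fetal liver. Each window held 3 CCAAT matches. Of the 31 measured clustered histone genes with a promoter in the table, 25 (80.6%) held CCAAT, 16 (51.6%) TATAAA and 9 (29%) the octamer. Counted by gene in the same way, these shares were 37.5%, 14.3% and 1.81% over all 27025 genes with a promoter.

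Genes of the ribosome and of the respiratory chain shifted as whole lists with almost no calls. None of the 86 measured cytosolic ribosomal protein genes was called, yet 76 lay below the all-gene median and the list median was -0.88. Their geometric mean signal was 17592 on wild-type fetal liver and 10062, 10952 and 10824 on null fetal liver, wild-type bone marrow and null bone marrow. The 3 other arrays thus lay within a narrow range of each other. Relative to all genes the list median was -0.62, and it was -0.04 with quantile normalization, so this shift depends on the normalization. Signal level moved with it too: over 10 bins of genes by mean level, the median difference of differences was -0.66 in the brightest, where most of these genes lie, and between -0.45 and -0.05 in the others. Measured from a smooth trend on level, the list median was -0.36. Mitochondrial ribosomal protein genes had a median of -0.81 over 73 genes, 2 called lower (Mrpl37 -2.68, Mrps24 -2.09) and 1 higher (Mrps31 2.21).

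Respiratory chain genes divided by genome. The 99 measured nuclear genes of oxidative phosphorylation had a median of -1.05, with 2 called lower and none higher. Ndufs8, a complex I subunit, had 377 and 82.0 in wild-type and null fetal liver and 186 and 273 in bone marrow (-2.75), and Cox19, needed to assemble complex IV, had -2.40. The 12 measured genes that mitochondrial DNA itself encodes, a list added after its values were seen, lay on the other side with a median of 1.10. ND4L, a complex I subunit, had 3609 and 15990 in fetal liver and 2337 and 1505 in bone marrow (2.78). ND4 had 2.45 and ATP8 2.12, while COX1 had -0.13. Relative to all genes the nuclear list ranged from -0.98 to -0.21 over the alternatives and the mitochondrial list from 0.97 to 1.87, so neither changed side. The probes of the nuclear list had a median GC content of 43.3% and those of the mitochondrial list 35%, against 45% over all genes. This feature moved with the difference of differences. The value of 0.97 for the mitochondrial list came with a smooth trend on GC content removed. Beyond that, the part of GC content in the result was not tested.

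Stress-response genes lay on the positive side. Among the AP-1 genes, which encode dimers induced within minutes of a stimulus, 5 were measured, 2 were called higher and none lower, and the median was 1.54. In a list this small, the share of 40% called higher, against 6.36% of all genes, says little. Fosb had 161 on wild-type and 1123 on null fetal liver, and 5344 on wild-type and 797 on null bone marrow, a difference of differences of 5.54. Wild-type bone marrow was the highest array and wild-type fetal liver the lowest, while the null arrays lay between them. Jund had 3132 and 3087 in fetal liver and 17586 and 1818 in bone marrow (3.25), a value that came from bone marrow alone. Jun had 1.54, Batf 1.12 and Junb 0.21. Fos itself was not a member: it was well above background on both bone marrow arrays (982 in wild type, 123.7 in null) and on neither fetal liver array.

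Of 18 immediate-early genes outside AP-1, 4 were called higher and none lower (22.2% higher, against 6.36% of all genes). Sertad2, a coactivator of E2F factors, held the highest value of all genes: 350 on wild-type and 1736 on null fetal liver, and 351 on wild-type and 25.9 on null bone marrow, or 6.07. In wild type its sources were at one level, and in null fetal liver was far above bone marrow. Zfp36l2, which promotes mRNA decay, had 2.64, Cited2 2.62 and Klf10 2.23. Srf, which drives many such genes, had -0.58 and was not called.

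Genes of the integrated stress response, by which ATF4 adapts cells to shortage of amino acids or misfolded protein, had 4 higher calls and no lower call among 22. The share called higher was 18.2%, against 6.36% of all genes. Nupr1, a small stress-induced chromatin protein, had 39.9 and 672 in wild-type and null fetal liver and 48.4 and 21.9 in bone marrow (5.22). Ddit4, an inhibitor of mTOR, had 292, 4802, 1868 and 1220 in that order (4.66). For both genes null fetal liver was the highest array. Hspa5 (2.53) is the main chaperone of the endoplasmic reticulum (ER), and Psat1 (2.19) an enzyme of serine synthesis. Atf4 had 0.64, Asns 0.47 and Phgdh -0.02, so the transcription factor and these targets were not called.

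**Figure D3:**
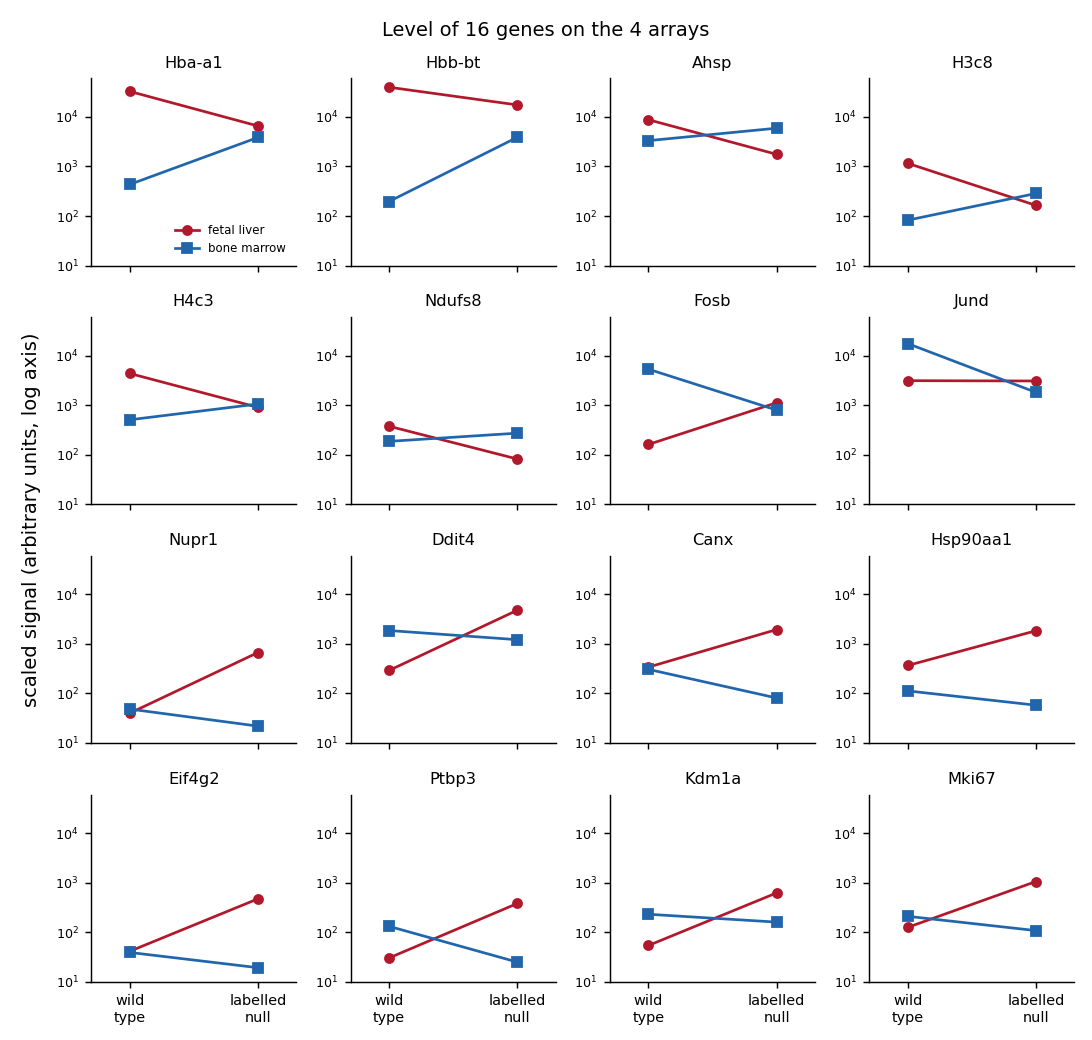
Scaled signal (arbitrary units, log axis) of 16 genes on the 4 arrays, with fetal liver in red circles and bone marrow in blue squares; each point is 1 array and lines join the genotypes of a source. Lines that are not parallel show a difference of differences. For Hba-a1 they draw together, with the sources 75.8-fold apart in wild type and 1.71-fold apart in null.

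Heat shock proteins and chaperones, which fold proteins, were called in 1 direction. Of 66 measured, 12 were called higher and none lower (18.2% higher, against 6.36% of all genes), and the median was 0.71, or 0.97 relative to all genes. Canx, a lectin chaperone of the ER, had 340 and 1952 in wild-type and null fetal liver and 307 and 81.1 in bone marrow (4.44). Its 2 wild-type arrays were alike, while on the null arrays fetal liver was 24.1-fold higher than bone marrow. Hsp90aa1, the inducible cytosolic HSP90, had 368, 1851, 113 and 58.0 in that order (3.29). Dnajc7, a co-chaperone of HSP70 and HSP90, had 4.0 and Hspd1, the mitochondrial chaperonin, 3.14. The others called were Dnajc10, Bag5, Hspa5, Dnaja2, Hspa4, Dnaja1, Cct8 and Dnajb6, between 2.09 and 2.79; a further probe of Hspa4 had -0.24. The list median stayed above that of all genes in every alternative, from 0.50 with genes detected on at least 1 array to 1.22 in the brighter genes.

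The Canx promoter is shown for the chaperone with the highest value, and because it holds the ER stress element (CCAAT, any 9 bases, CCACG) that the unfolded protein response uses in ER chaperone genes. The 250 upstream bases are from RefSeq, GRCm38.p6, chr11:50325674-50325923 on the minus strand, and capitals mark the CCAAT matches and the fixed letters of the element.
Canx: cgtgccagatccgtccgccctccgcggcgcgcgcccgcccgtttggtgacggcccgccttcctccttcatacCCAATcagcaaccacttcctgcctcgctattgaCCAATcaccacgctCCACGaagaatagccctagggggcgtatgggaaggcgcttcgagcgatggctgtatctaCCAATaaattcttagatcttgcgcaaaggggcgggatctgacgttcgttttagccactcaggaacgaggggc
The window held 3 CCAAT matches, 1 of them within the element. Of 54 measured chaperone genes with a promoter in the table, 5 held this element and 3 the heat shock element (GAA, any 2 bases, TTC, any 2 bases, GAA), on either strand. These are shares of 9.26% and 5.56%, against 0.13% and 0.514% of all 27025 genes with a promoter. A match is a description of letters, not of use.

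Genes that run protein synthesis outside the ribosome were called higher together with the chaperones. Of 64 measured translation factor genes, 14 were called higher and 2 lower (21.9% higher), and the median was 0.48. Eif4g2, a scaffold for initiation without the cap-binding protein, had 41.1 and 472 in wild-type and null fetal liver and 39.1 and 19.2 in bone marrow (4.54). Eif5, which triggers start codon recognition, had 163, 772, 261 and 87.9 in that order (3.81). For both, the wild-type sources were close and the null sources lay far apart. Eif5 had a further probe with 5.79. Eif3j1 (3.72), the release factor Gspt1 (3.55), Eif3c (3.45), Eif2a (3.42) and the poly(A)-binding protein Pabpc1 (3.1) followed. The lower members were Denr, a factor of ribosome recycling, with 172 and 20.8 in fetal liver and 159 and 160 in bone marrow (-3.06), and Eef1akmt1 (-2.28). Relative to all genes the list median was 0.74 and ranged from 0.53 to 0.88.

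Of 33 measured enzymes that charge tRNAs or assist in it, 5 were called higher and 1 lower, and the median was 0.42. These shares were 15.2% and 3.03%, against 6.36% and 3.02% of all genes. The cytosolic enzymes Tars (3.76), Iars (3.71), Lars (3.41), Wars (2.72) and Nars (2.57) were called higher, although a further probe of Wars had -0.78. The mitochondrial Sars2 was the lower member (-2.54). Among 80 genes of ribosome biogenesis and of RNA polymerases I and III, 10 were called higher (12.5%) and none lower, with a median of -0.16. The helicase Ddx21 had 3.68, Polr3k 3.09, and the nucleolar proteins Npm1 and Ncl 2.81 and 2.57. Npm1 had 4 further probes with values from 0.05 to 3.25.

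Splicing genes held the most higher calls of any list. Of 105 measured splicing factor, hnRNP and snRNP genes, 19 were called higher and 1 lower (18.1% higher), with a median of 0.33. Ptbp3, a repressor of exon inclusion, had 30.2 on wild-type and 380 on null fetal liver, and 132 on wild-type and 24.9 on null bone marrow (6.05), but a dimmer probe of it had -0.13. Hnrnpu, a nuclear scaffold protein, had 91.9, 1147, 80.5 and 44.3 in that order (4.50), and Dhx9, an RNA helicase, 27.4, 585, 43 and 49.8 (4.20). In these genes the null fetal liver array was the highest. Rbm39 had 3.40 and Srrm1 3.38. Snrpb, a core snRNP protein, was the lower member (-2.66).

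RNA polymerase II, TFII and Mediator genes had 9 higher calls and no lower call among 69, with a median of -0.15. Cdk8, the Mediator kinase, had 4.02 by its brightest probe and 0.89 by another. Taf4 had 3.59, Gtf2e2 3.03 and Med4 2.93. Genes of mRNA decay and of the microRNA pathway had 5 higher calls among 33 (15.2%) and none lower. Among them were Drosha, the nuclear enzyme that cuts microRNA precursors (3.41, and 3.28 by a further probe), Pan3 (3.33) and Cnot1 (2.76). Nuclear pore and transport genes had 5 higher among 35 (14.3%) and none lower, led by Nup88 (3.49) and Tnpo3 (3.44).

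Chromatin genes outside the histones had calls in some lists and few in others. Of the PRC2 subunits and cofactors, 8 were measured, 4 above 0 and 4 below, and 1 was called, Eed, the subunit that reads methylated lysine 27: it had 81.2 and 505 in wild-type and null fetal liver and 284 and 149 in bone marrow (3.57). Rbbp7 had 1.82, Rbbp4 -0.40 and Jarid2 -0.54. Ezh1 had -0.27 by a probe detected on all arrays, with 58.1, 66.0, 50.5 and 69.1. A brighter Ezh1 probe, left out because it was dim on wild-type fetal liver (8.05), had 235 on null fetal liver and 123.2 and 94.2 on wild-type and null bone marrow, so the probes of this gene disagree. Suz12, a core PRC2 subunit, was well above background on null fetal liver alone (34.1), and the cofactor Mtf2 on null fetal liver (147) and wild-type bone marrow (45.9). Of 10 PRC1 subunits, Phc2 was called lower (-2.00), and the list median was -0.56. Other histone methyltransferases and demethylases had 5 higher calls and none lower among 38, with a median of 0.42. The share called higher was 13.2%, against 6.36% of all genes. The called genes were Kdm1a, Nsd2 (2.53), Nsd1 (2.39), Prmt9 (2.39) and Kdm5c (2.01). Nsd1 and Nsd2 place methyl groups on lysine 36.

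DNA methylation genes had 4 higher calls among 14 and none lower (28.6% higher, against 6.36% of all genes). Dnmt1, which copies methylation to new DNA, had 27.8 and 101 in wild-type and null fetal liver and 43.6 and 28.0 in bone marrow (2.50). Tdg, which removes oxidised methylcytosine, had 2.69 by its brightest probe and 0.69 by another, and Gadd45a 2.15. SWI/SNF, CHD, ISWI and bromodomain genes had 4 higher among 27 (14.8%) and none lower, the highest the ISWI motor Smarca5 with 92.6, 626, 25.9 and 21.7 (3.01). Deacetylase and acetyltransferase genes had 5 higher and 2 lower calls among 37 and a median of -0.05. Their shares were 13.5% and 5.41%, against 6.36% and 3.02% of all genes. Ing1 had 3.57 by its brightest probe and 0.22 by another, and the cytoplasmic deacetylase Hdac6 had -2.33 and, by a further probe, -2.83.

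Genes of the dividing cell did not share a direction. Mitotic genes had 8 higher and 2 lower calls among 47 (17% and 4.26%) and a median of -0.25, at that of all genes. Mki67, a coat protein of mitotic chromosomes, had 125 and 1057 in wild-type and null fetal liver and 210 and 108 in bone marrow (4.03), but 0.86 by a further probe. Tpx2, a spindle protein, had 3.72 and Sgo1, which guards cohesion at centromeres, 3.31, while the kinetochore proteins Spc24 and Cenps had -2.29 and -2.23. DNA replication genes had 5 higher and 2 lower calls among 52. These shares, 9.62% and 3.85%, lie near those of all genes (6.36% and 3.02%), so the counts are no result about the list. The origin protein Orc1 had 3.06 and the helicase subunit Mcm4 2.17. Cdc45, a partner of that helicase, had -2.33 and Tk1 -2.11. CDK inhibitor and retinoblastoma family genes had 3 higher and 2 lower calls among 17 (17.6% and 11.8%). Higher were Ccnd2, Tfdp1 and E2f6, 2.11 to 2.33, with Tfdp1 at 0.41 by a further probe. Lower were E2f2 (-2.40) and Cdkn2c (-2.26). DNA repair and checkpoint genes had 7 higher and 2 lower calls among 40 (17.5% and 5%) and a median of 0.56. Slx4, a nuclease scaffold, had 3.77 and the cohesin subunits Smc3 and Rad21 3.61 and 2.48. Ercc1 had 122 and 16.5 in fetal liver and 53.1 and 55 in bone marrow (-2.94).

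Among signalling genes, the share called higher passed that of all genes (6.36%) in some lists and lay near it in others. Cytokine receptor and JAK-STAT genes had 4 higher and no lower calls among 25 (16% higher), with a median of 0.70. Kit, the stem cell factor receptor, had 96.0 and 362 in wild-type and null fetal liver and 414 and 290 in bone marrow (2.43), and the phosphatase Ptpn2 had 3.15. Epor, the erythropoietin receptor, had -1.57 and was not called. MAPK, PI3K and mTOR kinase genes had 4 higher and 1 lower among 52, shares of 7.69% and 1.92% that lie near the background: the mTOR inhibitor Tsc1 had 3.24, and Map4k1 3310 and 748 in fetal liver and 1304 and 1295 in bone marrow (-2.14). Interferon response genes had 2 higher (Bst2 4.70, Samhd1 2.46) and 1 lower (Irf9 -2.60) among 17. In a list this small, these shares of 11.8% and 5.88% say little. Nucleotide synthesis genes had 3 higher among 30 (10%), near the share of all genes, with Gmps, which makes GMP, at 4.79.

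Vesicle, cytoskeleton and Zfp genes were called at shares near those of all genes (6.36% higher, 3.02% lower), so their counts are no result about the lists. Ubiquitin genes had 17 higher and 2 lower calls among 161 (10.6% and 1.24%), led by Fbxl2 (3.74) and the ligase Huwe1 (3.73). Vesicle traffic genes had 12 and 6 among 139 (8.63% and 4.32%): Vps33b, of a tethering complex of late endosomes, had 24.8 and 421 in wild-type and null fetal liver and 258 and 239 in bone marrow (4.20), while the sorting nexins Snx8 and Snx15 had -3.23 and -3.13. Chmp6, a subunit of the membrane-cutting ESCRT-III complex, had -2.85 by its brightest probe and 2.70 by another, so its direction depends on the probe. Cytoskeleton genes had 9 and 3 among 109 (8.26% and 2.75%), from Flna, an actin crosslinker (53.4, 693, 954 and 596; 4.38), to the light chain Myl4 (-3.48). Rac1 had 3.21 by its brightest probe and -0.55 by another. Zfp zinc finger genes had 10 and 3 among 112 (8.93% and 2.68%), with Zfp639 at 4.08 and Zfp865 at -2.44 (-0.49 by a further probe). The commonly used reference genes had 3 and 1 among 26 (11.5% and 3.85%).

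**Figure D4:**
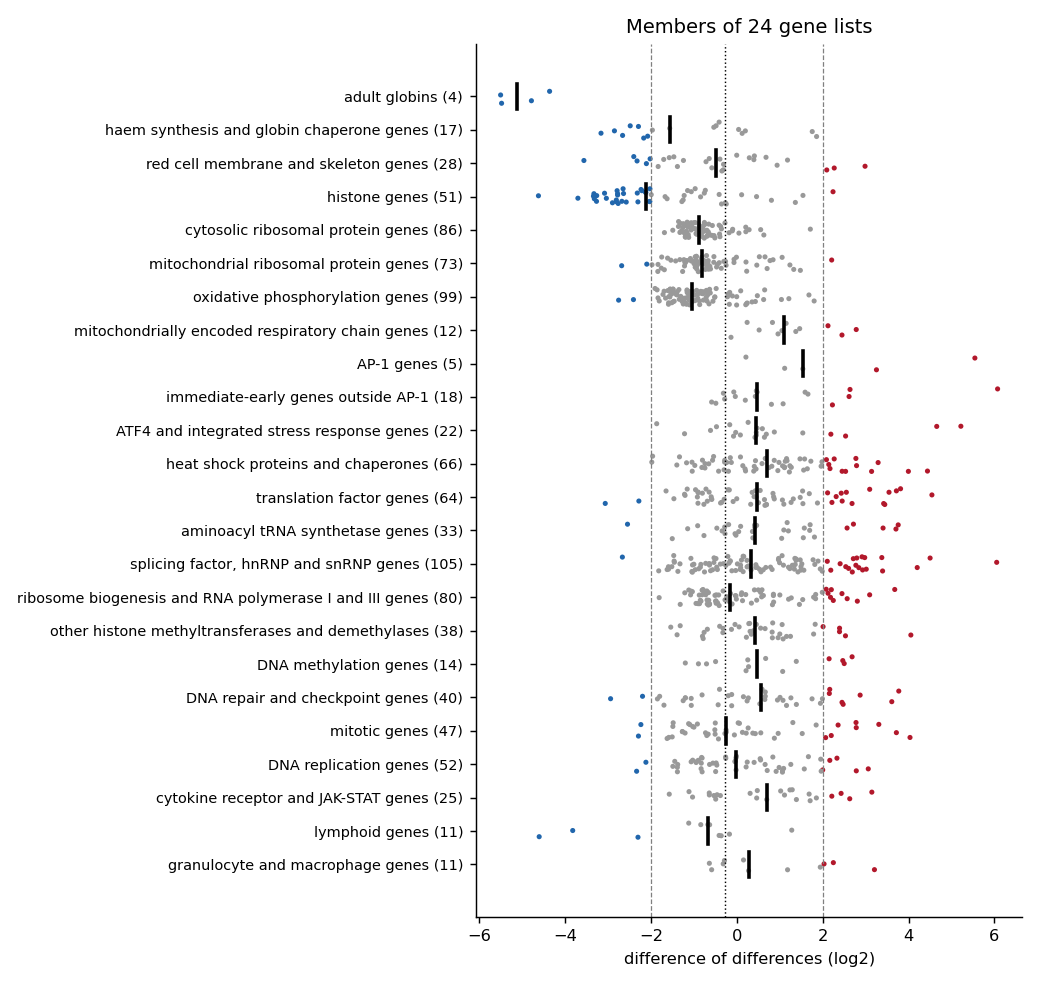
Difference of differences (log2) of the measured members of 24 gene lists, with the number measured in brackets; each point is a gene, called higher in red and called lower in blue, and bars are list medians. Dashed lines mark the 4-fold call and the dotted line the all-gene median of -0.26; all 4 adult globins and 29 of 51 histone genes lie left of the lower dashed line, and 2 of 5 AP-1 genes and 12 of 66 chaperones right of the upper one.

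Genes of other blood lineages were among the members: 11 of 34 lymphoid and 11 of 35 granulocyte and macrophage genes on the array. Over the whole array, 11212 of 31694 names were members. Of the 11 lymphoid genes, 3 were called lower (27.3%, against 3.02% of all genes). Dntt, the lymphoid enzyme that adds bases to antigen receptor joins, had 35.0 and 26.0 in wild-type and null fetal liver and 76.6 and 1381 in bone marrow (-4.60), so the null bone marrow array alone was high. Thy1 had -3.82 and Cd79a -2.30. Over all 34 lymphoid markers on the array, 24 were well above background on null bone marrow and 13 on each of the others, and their summed signal was 5132 there against 483 to 837. Ebf1 was not well above background on any array, and Vpreb1 only on wild-type fetal liver (91.5) and null bone marrow (2202). Of the 11 granulocyte and macrophage genes, 3 were called higher (27.3%, against 6.36% of all genes). Among them were the integrin chain Itgb2 (136, 493, 417 and 163, in the order above, with 3.21) and Fcer1g (2.25). Over all 35 such markers on the array, 14 and 17 were well above background on wild-type and null fetal liver, and 13 and 15 on bone marrow. Their summed signals were 114629, 102739, 61374 and 59991 in that order. Their list median was 0.54 above that of all genes, and 0.14 below it (-0.14) with genes detected on at least 1 array. The part of other cells in these results was not tested.

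The remaining 28 lists had fewer than 3 calls each, among them those of PRC2, PRC1, AP-1, cytosolic ribosomal and nuclear respiratory genes above, and 9 had none. No call fell among 5 Hox genes, 6 MYC, MAX and MXD genes, 14 imprinted genes, 5 fetal progenitor programme genes, 4 endothelial and stromal genes or 3 mast cell, basophil and eosinophil genes. With 9.38% of all genes called, a count of 0 in lists this small says little about them. Of 47 developmental transcription factors, a class that PRC2 silences in many tissues, 1 was called (Foxj3, 3.08). Of 17 erythroid and megakaryocyte transcription factors, Ikzf1 (2.13) and Klf1 were called, and of 10 megakaryocyte genes Vwf (-2.53) and Myl9 (-2.17). Of 7 stem cell genes, Msi2, an RNA-binding protein of blood stem cells, had 41.6 and 329 in wild-type and null fetal liver and 73.6 and 17.5 in bone marrow (5.06). Bex1 and Zdhhc5 were higher on the null array by 3.38 and 2.58 in fetal liver and by 4.32 and 3.07 in bone marrow, so their differences of differences were -0.93 and -0.49.

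The lists held 308 of the 1052 called genes. Among named genes outside them whose further probes, where measured, had the same sign, the highest were Bend3 (29.6 and 444 in wild-type and null fetal liver, 277 and 76.8 in bone marrow; 5.76), Jpt2 (5.62) and Zc3h18 (5.49). Gpbp1, Aftph, Wac, Mtrex, Piga, Zbtb12 and Clcn3 followed, between 5.07 and 5.31. Piga acts in the first step of the anchor that holds many proteins to the cell surface, and Mtrex is the helicase that feeds the nuclear exosome. The lowest was Fxyd6, with 32.6 and 27.9 in fetal liver and 11.9 and 365 in bone marrow (-5.16), followed by the peroxisomal Pex11g (-5.05) and Lfng, which modifies Notch receptors (-4.80). Lrig1, Serinc4, Ocel1, Rgcc, Sting1, D8Ertd738e and Mfsd3 lay between -4.67 and -3.83. For Pex11g, Lfng and Serinc4, both sources differed more than 2-fold and in opposite ways, while Fxyd6 and Sting1 differed in bone marrow alone.

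Features of the probe moved with the difference of differences over all genes. Over 10 bins of genes by probe start in the transcript, the median was -0.54 in the second (205 to 425 bases) and 0.22 in the last (3597 bases and more). Over 10 bins by probe GC content it was 0.18 in the lowest (up to 35%) and -0.43 in the highest (55% and more). The share of genes called higher followed, from 1.87% in the fourth bin of probe start to 13.7% in the last. Their part in the list results was not tested beyond removing a smooth trend. Measured from the trend on probe start, the median was -1.59 for histone genes, 0.88 for chaperones and -0.44 for cytosolic ribosomal protein genes. With that trend removed, other lists moved closer to the all-gene median. Relative to it, remodelling genes went from 0.52 to 0.17, PRC2 genes from 0.43 to 0.16, tRNA charging enzymes from 0.68 to 0.34 and DNA repair genes from 0.83 to 0.47.

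**Figure D5:**
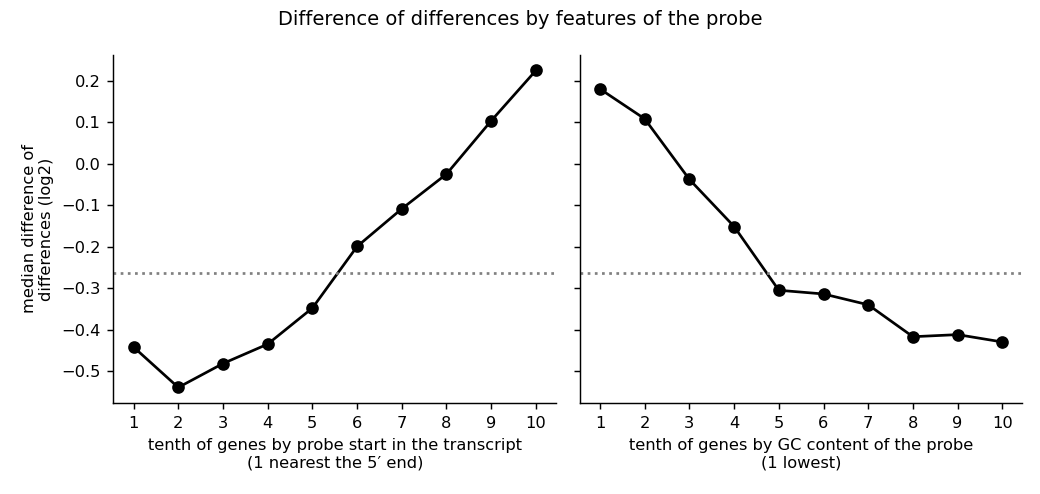
Median difference of differences (log2) of the measured genes in 10 bins by the start of the probe in the transcript (left) and by its GC content (right); the dotted line is the all-gene median of -0.26. The medians run from -0.54 in the second bin to 0.22 in the last by probe start, and from 0.18 to -0.43 by GC content.

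A further probe was the only other reading of a called gene. Of 140 called genes with another probe well above background on all arrays, 80.0% had the same sign there; the value reached 2-fold the same way in 52.9% and 4-fold in 31.4%. Over all 1442 genes with another probe, called or not, 72.6% had the same sign. For genes with a single probe, no such reading exists. The detection rule sets an edge: the lowest member signal on any array was 9.79, and the brightest signal of a gene left out for 1 dim array was 27.3. Of 1756 genes left out for 1 array, 823 lacked wild-type fetal liver, which had the highest floor (19.3, against 9.79 to 12.6).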

How the data were processed

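The deposited intensities are the authors' processed signals from Agilent Feature Extraction 10.7.3.1, per the file headers, which subtract background and correct spatial trends within an array and do nothing between arrays. The deposited flags for signal well above background were used as given. Outlier spots (95 to 135 of 43020 per array) and control spots were left out, none was saturated, and spots of a probe were averaged on the log2 scale. Of 39418 probes, 12880 passed that flag on all 4 arrays, and each array was divided by the 75th percentile of these probes' signals. A gene took its brightest probe. Coordinates of probes are mm9, per the file headers.

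Names were updated through RefSeq tables of GRCm38.p6: 26153 probes matched by accession, 3124 by symbol and 910 by older name, and 9231 kept the file's name. Promoters matched 6493 of the 11212 measured genes, too few for a share over all measured genes. The authors' deposited series table of intensities differed from the scanner values by at most 0.496%, with column medians of 7.31, 11.4, 10.8 and 9.08, so it is on a linear scale with no centring.

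With 1 array per group, no test was run. A call is a difference of differences of at least 4-fold. Named genes are Ezh2, every member of lists of up to 6 genes, up to 4 called members with the largest size per direction in other lists, and the 10 highest and 10 lowest named genes outside the lists whose other probes had the same sign. Other genes named were chosen after their values were seen, as examples of a role. The members and lists were chosen with earlier results of these data known. The split of the histone list, the list of mitochondrially encoded genes, the removal of a trend on probe GC content, the 450-base limit and the motifs were chosen after values were seen. Alternatives covered other scalings, quantile normalization and cyclic loess, normexp with an offset of 50, other probes per gene, detection on at least 1 array, a pseudocount of 16, removal of smooth trends and other thresholds. R 4.3.3 with limma 3.58.1 and Python 3.11.15 with numpy 2.4.6, pandas 2.3.3, statsmodels 0.14.6 and matplotlib 3.10.9 were used. The calculation was tested on simulated data. The number of arrays limits the precision of every value. Some genes are not reported here.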

Additional observations from a re-analysis of the deposited data

Results flagged for a closer look

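Some genes moved in opposite ways by genotype in the 2 sources, at least 2-fold in each. With 1 array per group, the difference between sources was not tested for any of them. Of the genes called higher, 218 had a null signal 2-fold or more above wild type in fetal liver and 2-fold or more below it in bone marrow. The reverse held for 65 of the genes called lower. Together these are 2.52% of all measured genes. Within them lie all 4 adult globins, 4 of 66 chaperones (Canx, Dnajc10, Dnajc7, Hspa5), 7 of 64 translation factor genes (Eif2a, Eif3c, Eif3j1, Eif4g2, Eif5, Gspt1, Pabpc1), 4 of 105 splicing genes (Ptbp3, Son, Srrm1 and, in the lower direction, Snrpb), 5 of 112 Zfp zinc finger genes, 5 of 161 ubiquitin genes and 4 of 139 vesicle traffic genes, the last pair near the share of all genes.

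Outside the measured set, Xist was well above background on the null fetal liver array alone, with a scaled signal of 743. No array had a signal well above background for Uty, Ddx3y, Eif2s3y or Kdm5d, genes of the Y chromosome. The labels give no sex, and its part in the results was not tested.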

How the results depend on the processing

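No paired analysis was possible because each group has 1 array and the labels give no replicate numbers; for the same reason no replicate could be left out. Against 1052 calls, 328 genes were called with normexp, 1693 with genes detected on at least 1 array, 557 among genes above the median signal, 3752 at 2-fold and 287 at 8-fold. Against 713 higher calls there were 1091 with spike-in scaling, 222 with normexp, 1259 with genes detected on at least 1 array, 386 above the median signal, 1784 at 2-fold and 225 at 8-fold. Against 339 lower calls there were 529 with the percentile over all probes, 152 with spike-in scaling, 106 with normexp, 171 above the median signal, 217 with a pseudocount of 16, 1968 at 2-fold and 62 at 8-fold. Fewer genes enter above the median signal, and more enter with detection on 1 array. Of the lists with at least 5 measured members, 26 of 61 had a median at least 0.5 from that of all genes, 25 kept their side in every alternative, and 8 stayed at least 0.5 away in every one. The exception, granulocyte and macrophage genes, went from 0.54 to -0.14 with genes detected on at least 1 array. Among the 8 are the clustered histone and the mitochondrially encoded lists, both made after their values were seen. The histone list, which contains the clustered one, is also among the 8. These counts are therefore a description and support nothing. Chmp6 went from -2.85 to 1.04 with normexp, and Stom from 2.10 to -0.63 with the probe nearest the 3′ end. Of 213 named called genes, 84 stayed at least 4-fold in every alternative that held them (15 or 16 each), while 117 fell short with normexp, which lowers the folds of dim probes.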

Other observations

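By chromosome, genes called lower made up 7.93% of those on chromosome 13, where many histone genes lie, and 2.76% of the 362 genes there outside the histone list. For 227 of the 713 genes called higher and 208 of the 339 called lower, fetal liver and bone marrow lay closer together in null than in wild type. This was not counted over all measured genes, where the SD of the source difference was 1.09 in wild type and 1.15 in null. The call uses the same signals, so these counts describe the called genes and support nothing.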
